A study of Mus musculus with 6 samples.

Results

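Cell cycle and proliferation genes were followed in groin fat, the inguinal white adipose depot under the skin. They were 36 genes chosen by symbol, 14 that act at the G1/S transition and in DNA replication and 22 that act in G2 and mitosis. Each of the 36 matched 1 row of a table of 25894 Ensembl gene identifiers, and all 36 were among the 22290 genes that passed the filter on low values. The RNA came from 6 female C57 BL/6N mice, described in the series text as 15 weeks old, 1 library per mouse. In the group titled SF 8w-SR 2w, 3 mice had 8 weeks of fragmented sleep and then 2 weeks of recovery sleep, and they are called FR 1 to FR 3 here. The other 3 mice were controls, called C 1 to C 3, and tissue of all 6 was taken after a 10 h fast. The comparison asks whether the level of these transcripts in fat differed from controls after the recovery period. No mice of this series were sampled before recovery, so whether a difference lasted cannot be asked.

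A dividing cell passes from G1 into DNA replication when E2F transcription factors switch on the genes of the replication machinery, among them the MCM helicase, the PCNA clamp and the enzymes that make deoxynucleotides. A later wave of genes, including the mitotic cyclins, the Aurora and Polo kinases and the proteins of the spindle and kinetochore, is held silent in resting cells by the DREAM complex and switched on in G2 by MYB-MuvB and FOXM1. Mature adipocytes do not divide, so dividing cells in fat are others, such as progenitors, endothelial cells and immune cells. Germinal centre B cells of a lymph node are among the fastest dividing cells of the body. Which cells gave the transcripts measured here was not tested.

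Many of these promoters carry sequence words known for the 2 waves, and 5 are shown that hold them within the 160 bases before the start. They were picked after the matches were seen. Windows of 300 bases, 250 before and 50 after the RefSeq gene start (GRCm38.p6), were found for 29 of the 36 genes, and 27025 genes in all had a window. The E2F words TTTGGCGC or TTTCGCGC, searched on both strands, were in 4 of 12 G1/S windows and in 1 of 17 G2/M windows, against 0.929% of all genes. The CHR words TTTGAA or TTCGAA, the element that DREAM and MYB-MuvB bind, were in 2 of 12 G1/S windows and in 13 of 17 G2/M windows, against 21.7% of all genes. The word CCAAT, which NF-Y binds, was in 8 of 12 and 15 of 17, against 41.1% of all genes. In the 160 bases before the start of each gene, printed 5′ to 3′ on the gene's strand, capitals mark these words on either strand. In Mcm5 and in Mcm6, E2F words on opposite strands overlap within the longest run of capitals.
Mcm5 (chr8:75109349-75109508, + strand): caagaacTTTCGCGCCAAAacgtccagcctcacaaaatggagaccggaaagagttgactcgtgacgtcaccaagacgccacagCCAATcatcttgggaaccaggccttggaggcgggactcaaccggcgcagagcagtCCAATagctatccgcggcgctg
Mcm6 (chr1:128359706-128359865, - strand): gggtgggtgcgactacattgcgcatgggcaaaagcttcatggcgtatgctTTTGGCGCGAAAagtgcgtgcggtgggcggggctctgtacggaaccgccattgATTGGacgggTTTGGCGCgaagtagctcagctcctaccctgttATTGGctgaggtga
Cdk1 (chr10:69352913-69353072, - strand): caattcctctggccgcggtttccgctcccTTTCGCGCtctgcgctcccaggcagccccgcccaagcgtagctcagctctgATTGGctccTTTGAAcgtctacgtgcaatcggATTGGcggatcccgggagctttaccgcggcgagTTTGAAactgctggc
Top2a (chr11:99024190-99024349, - strand): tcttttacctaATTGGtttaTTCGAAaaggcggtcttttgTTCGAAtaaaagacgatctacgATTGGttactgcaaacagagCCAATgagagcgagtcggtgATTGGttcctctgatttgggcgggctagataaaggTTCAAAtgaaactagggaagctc
Kif11 (chr19:37376222-37376381, + strand): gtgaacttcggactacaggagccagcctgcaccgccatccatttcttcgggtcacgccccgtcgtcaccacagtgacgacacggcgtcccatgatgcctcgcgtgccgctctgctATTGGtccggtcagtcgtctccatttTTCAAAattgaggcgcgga
Mcm5 and Mcm6 carry E2F words and CCAAT and no CHR word in this stretch. Top2a and Kif11 carry CHR words and CCAAT and no E2F word, and Cdk1 carries all 3 kinds. A match is a description of the letters and not evidence of binding, and a window without a match says nothing about the factor.

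Values behave as read counts divided by a size factor of each library, and are called normalised values. Differences are on the log2(value + 1) scale, FR minus control. The whole reads recovered from the table summed to between 15610201 and 19703569 per library. The 10 adipocyte markers, Adipoq and Plin1 among them, were at 0 in no library, with summed normalised values of 407839 to 730459 in FR mice and 377712 to 597726 in controls. By limma with Benjamini-Hochberg adjustment over all genes, 0 of the 22290 genes passed an FDR of 0.05 (0.00%), 478 genes (2.14%) were lower in FR mice at an unadjusted p under 0.05 and 723 (3.24%) were higher. Tests on the recovered reads also made 0 calls (0.00%), with 754 genes (4.67%) at an unadjusted p under 0.05 by edgeR and 1186 (4.60%) by DESeq2. Mice are the replicates, and a lower value in such bulk tissue cannot tell fewer dividing cells from less of the transcript per cell.

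All 36 genes had a lower mean log2 value in FR mice than in controls, against 48.4% of all genes tested, but none passed the test. The exception to that direction under another scaling was E2f1, which was higher with scaling by library size alone and with edgeR. The median difference was -1.12 over the 36 genes and 0.02 over all genes tested, a median that library-size scaling moved to 0.14. Limma's adjusted p was between 0.697 and 0.983 for the 36 genes. In 0 of the 36 were all FR mice below all controls, and in 0 above, against 3.58% and 5.02% of all genes tested, and FR 2 lay above C 1 in all but Ccne2 and E2f1. At an unadjusted p under 0.05 there were 10 of the 36 lower, 1 in G1/S and 9 in G2/M, against 2.14% of all genes. That count was 0 without FR 1, without C 2 or without C 3, when 1.30%, 0.808% and 0.870% of all genes were lower at that p. It was 1 without FR 3 (1.32%), 20 without FR 2 (2.00%) and 26 without C 1 (11.4%). On recovered reads it was 4 by edgeR, against 2.98% of all genes lower, and 17 by DESeq2, against 2.91%. The fit without C 1 was the only one of the 6 leaving out 1 mouse that made calls, 844 genes (3.79%), of which 281 were lower (1.26%). Ccnb1 and Mcm6 were among the lower ones, and the smallest limma adjusted p of the 36 was then 0.0409. In that fit 24.4% of all genes had an unadjusted p under 0.05.

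Mice of one group differed widely. C 2 was the highest library for 32 of the 36 genes, against 23.4% of all genes tested. FR 1 was the lowest for 21 and FR 3 for 12, against 25.8% and 11.0% of all genes tested. For 32 genes FR 2, C 2 and C 3 all lay above FR 1, FR 3 and C 1, an order found in 10.8% of all genes. The 4 genes without that order were Pcna, Ccne2, E2f1 and Cdk1. The lowest read count behind any of these values was 17, for Aurkb in FR 1.

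**Figure D1:**
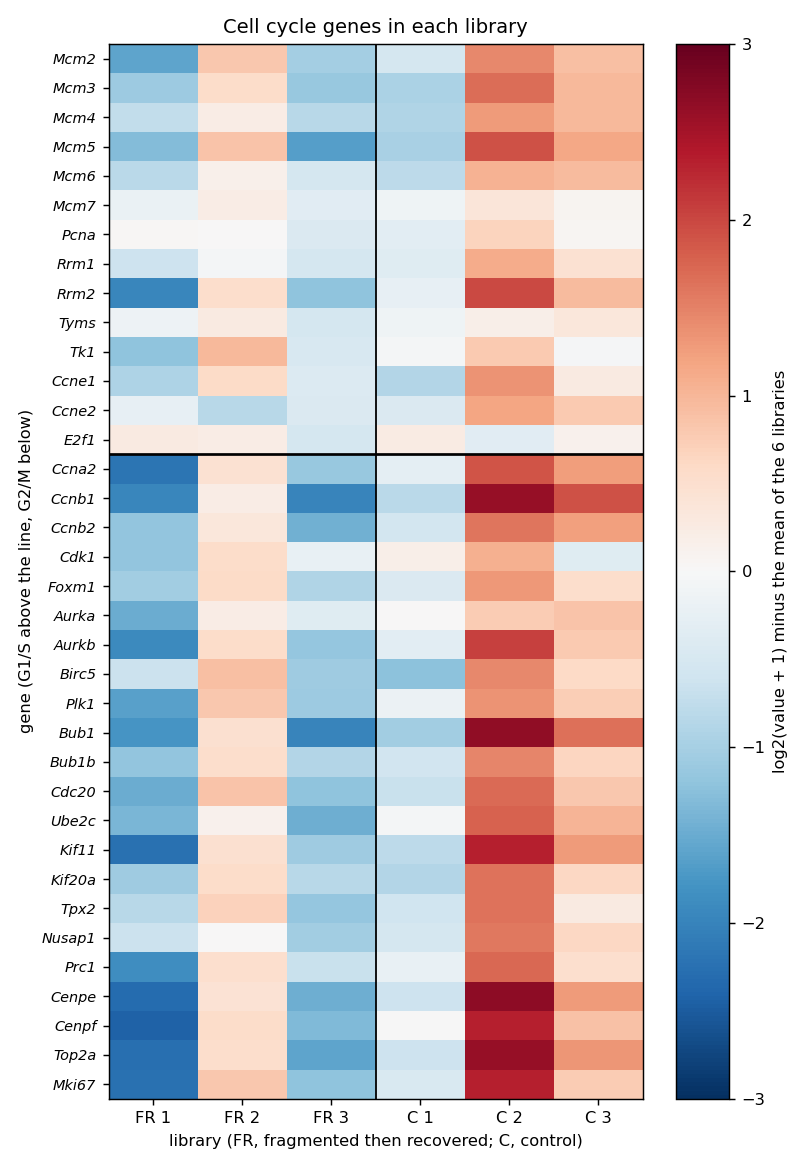
Each row is 1 of the 36 genes and each column 1 library, and the colour is log2(value + 1) minus the gene's mean over the 6 libraries. FR 2, C 2 and C 3 are above the mean in most rows, C 2 is the highest library for 32 genes, and E2f1, Pcna, Mcm7 and Tyms are pale throughout.

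The 6 MCM genes encode the helicase that unwinds DNA at replication forks, and their median difference was -1.01. The normalised values of Mcm6 were 446.8, 866.3 and 541.7 in FR 1 to FR 3 and 451.9, 1612 and 1507 in C 1 to C 3. C 2 and C 3 were high and C 1 lay among the FR mice, so the groups overlapped. The means were 618 ± 220 (SD, n = 3) and 1190 ± 642, a difference of -0.80 (SE 0.48). Mcm5 had a difference of -1.40, Mcm2 of -1.21, Mcm3 of -1.12 and Mcm4 of -0.89. Mcm7 stood apart with -0.22, and its highest library was only 1.64 times its lowest, against 11.9 times for Mcm5. The lowest library of Mcm4 was C 1.

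Among the genes of the replication clamp and of nucleotide supply, Pcna varied little and Rrm2 varied most. Pcna encodes the sliding clamp that holds DNA polymerase on its template and also serves DNA repair. Its values were 1155, 1142 and 845 in the FR mice and 904, 1793 and 1176 in the controls, with FR 1 and FR 2 above C 1 (difference -0.26, SE 0.29). Rrm2, the S-phase subunit of ribonucleotide reductase, had 43.5, 251 and 74.0 in the FR mice and 145, 683 and 333 in the controls. FR 1 and FR 3 were the lowest libraries and FR 2 lay between C 1 and C 3. Rrm2 had the largest G1/S difference, -1.77 (SE 0.70, unadjusted p = 0.031 by limma, adjusted p = 0.697). Rrm1, the large subunit of the same enzyme, had -0.80, Tk1, which salvages thymidine, -0.46, and Tyms, which makes thymidylate, -0.26. Tk1 was highest in FR 2, not in C 2, and turned to 0.03 without FR 1, and Pcna turned to 0.01 without C 2.

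Cyclin E and E2F1 drive entry into S phase, and the 3 genes of this kind differed from one another in their order over libraries. Ccne2 had 114, 75.1 and 100 in the FR mice and 99.1, 309 and 233 in the controls. FR 2, high for most of the 36 genes, was the lowest library here, and C 1 lay inside the FR range (difference -1.01, SE 0.46). Ccne1 had a difference of -0.49, which turned to 0.06 without C 2. E2f1, the transcription factor itself, is given in every library because its difference was the smallest, and had 166, 162 and 94.8 in the FR mice and 165, 110 and 150 in the controls. These ranges cover each other almost fully, and the difference was -0.03 (SE 0.38).

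In G2/M the mitotic cyclins had some of the largest differences. Ccnb1, the cyclin that activates Cdk1 for entry into mitosis, had values of 34.2, 158.5 and 33.4 in the FR mice and 76.7, 826 and 507 in the controls. FR 1 and FR 3 were below every control, and FR 2 was above C 1. Its difference of -2.47 (SE 0.88) was the largest of the 36 (unadjusted p = 0.0199 by limma, adjusted p = 0.697). Ccna2, the cyclin of S and G2, had 44.6, 284.5 and 93.0 against 168, 759.6 and 492.4, a difference of -1.90 (SE 0.71). Ccnb2 had 50.8, 148 and 42.4 against 79.9, 360.6 and 278.5, a difference of -1.54 (SE 0.65). In both, as in Ccnb1, FR 1 and FR 3 were below every control and FR 2 lay between C 1 and C 3.

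Cdk1, the kinase these cyclins bind, differed less than they did. It had 57.0, 192 and 113 in the FR mice and 148, 275 and 101 in the controls, so that C 3 lay below FR 3 (difference -0.57, SE 0.53). Foxm1, which activates the G2 wave, had a difference of -0.92.

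The mitotic kinases and survivin had a median difference of -1.19. Aurka, the Aurora kinase of the spindle poles, had 32.1, 108 and 71.3 in the FR mice and 93.8, 158 and 168 in the controls, with only FR 2 inside the control range (difference -1.10, SE 0.51). Aurkb, the kinase of the chromosomal passenger complex, had -1.68 and Plk1, the Polo kinase, -1.27. Birc5, which encodes survivin of the same passenger complex, had -0.54, was lowest in C 1 and turned to 0.04 without C 2.

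The genes of the spindle checkpoint and of the anaphase-promoting complex were low in FR 1 and FR 3 alike. Ube2c, the ubiquitin-conjugating enzyme of that complex, had 61.2, 174.5 and 57.8 in the FR mice and 153, 546 and 324 in the controls. FR 2 exceeded C 1 by a small margin, and the other FR mice were below every control. Its difference was -1.81 (SE 0.56) with the smallest p of the 36 (unadjusted p = 0.0101 by limma, adjusted p = 0.697). Bub1, a checkpoint kinase, had 20.7, 104 and 18.1 against 35.2, 469 and 234, a difference of -2.17 (SE 0.96). Cdc20, an activator of the complex, had -1.22 and Bub1b, which encodes BubR1, -1.02.

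Motors and microtubule proteins of the spindle had differences from -0.87 to -1.89. Kif11, the motor that pushes the spindle poles apart, had 50.8, 342 and 116.5 in the FR mice and 142, 1239 and 594 in the controls. FR 2 lay between C 1 and C 3, and the difference was -1.89 (SE 0.83). Prc1, which bundles the central spindle, had -1.34, Nusap1, a microtubule stabiliser, -1.12, Kif20a, a motor of cytokinesis, -0.90, and Tpx2, the activator of Aurora A, -0.87.

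The 4 kinetochore and chromosome genes were the role with the lowest median, -2.17. Top2a, the topoisomerase that untangles replicated chromosomes, had 136, 943 and 218.5 in the FR mice and 423, 4003 and 1630.0 in the controls. FR 1 had the lowest value and C 2 the highest, 29.5 times higher, and the group difference was -2.20 (SE 0.85). Mki67, the proliferation marker that coats mitotic chromosomes, had 172, 1437 and 355 against 593, 4143 and 1380. FR 2 lay just above C 3 here, and the difference was -1.75 (SE 0.81). Cenpe, the kinetochore motor, had 27.0, 184 and 48.8 against 88.5, 877 and 333, a difference of -2.22 (SE 0.87). Cenpf, a kinetochore protein of late G2, had 24.9, 203 and 55.1 against 136, 696 and 257, a difference of -2.13 (SE 0.78). In all 4 genes FR 1 was the lowest library, FR 3 the next and C 1 the third.

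**Figure D2:**
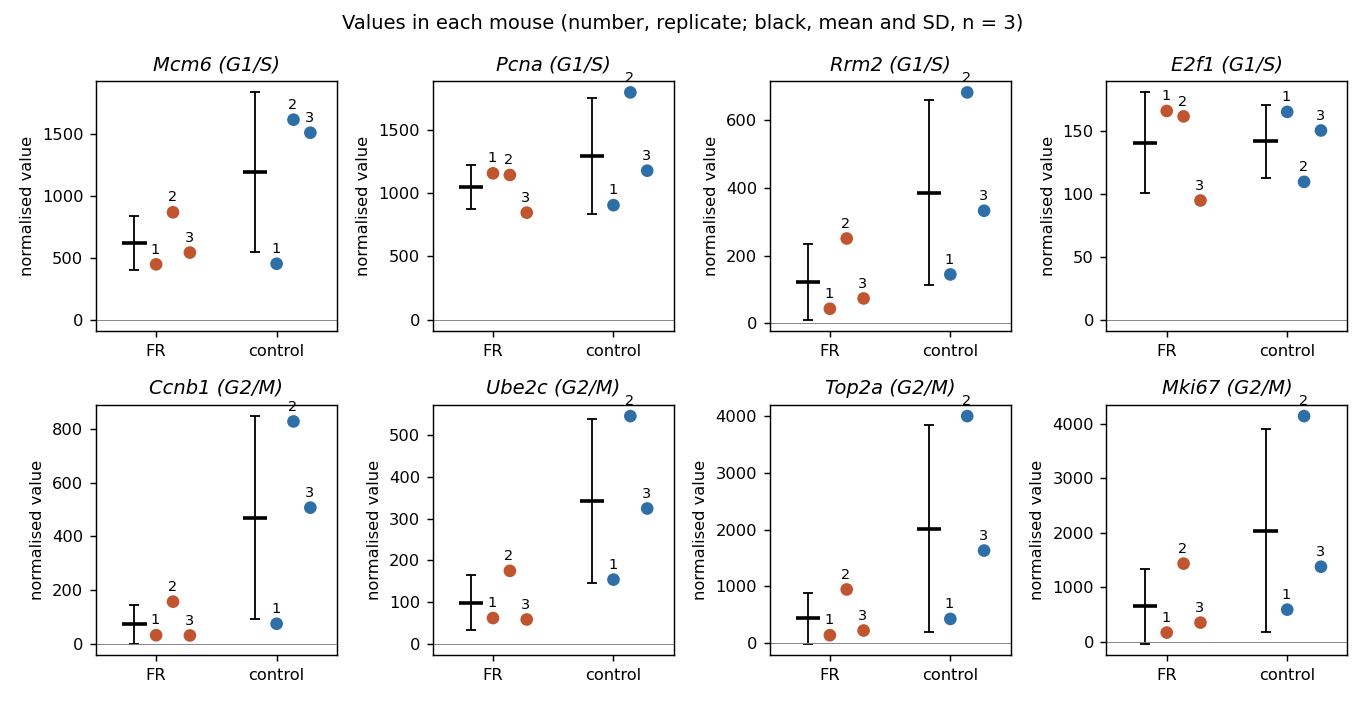
Each panel plots 1 gene, with the normalised value of each mouse on a linear axis from 0, FR mice in orange and controls in blue, the replicate number above each point, and the group mean and SD (n = 3) in black. The groups overlap in every panel, C 2 is the top point in all but E2f1, and C 1 is the lowest control in all but E2f1.

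Levels can be compared between genes per kilobase of the longest GENCODE M21 transcript. On this scale Pcna was the most abundant, at 770.2 ± 222 normalised value per kb (SD, n = 6 libraries), above the next gene in all 6 libraries. Top2a followed at 235 ± 282 and Mcm7 at 227 ± 42.8, and Top2a was above Mcm7 in only 2 of 6 libraries, so these neighbours did not differ beyond their spread. Mcm6 had 208 ± 122, Mcm4 158 ± 106 and Mki67 134 ± 146. The lowest levels were 20.6 for Cenpf and 24.3 for Birc5.

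The G2/M list had the larger median difference. It was -1.44 over the 22 G2/M genes, with a range of -2.47 to -0.54, and -0.80 over the 14 G1/S genes, with a range of -1.77 to -0.03. The G1/S median was -1.29 without C 1 and -0.46 without C 2. These medians describe lists of related genes and carry no test. The summed normalised value of the G1/S genes was 3735, 6223 and 3456 in FR 1 to FR 3 and 3843, 11068 and 7922 in C 1 to C 3, with means of 4472 ± 1523 (SD, n = 3) and 7611 ± 3623. For the G2/M genes the sums were 1207, 5882 and 1765 in the FR mice and 2883, 17626 and 7942 in the controls, with means of 2951 ± 2553 and 9483 ± 7491. In both lists FR 2 lay above C 1 and below C 3.

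The ratio of the G2/M sum to the G1/S sum set the 2 lists against each other within a library. It was 0.32, 0.95 and 0.51 in FR 1 to FR 3 and 0.75, 1.59 and 1.002 in C 1 to C 3, with means of 0.593 ± 0.319 (SD, n = 3) and 1.11 ± 0.43. FR 1 and FR 3 had the lowest ratios, and FR 2 lay between C 1 and C 3. On the log2 scale, the G2/M median minus the G1/S median of each library's deviations was -0.79, 0.28 and -0.62 in the FR mice and -0.14, 0.57 and 0.19 in the controls. The range over libraries was thus wider in G2/M than in G1/S, in both directions. The difference of the 2 list medians between groups was -0.64, it was -1.02 without FR 2, and it was -0.22 without FR 1 and C 2 together.

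**Figure D3:**
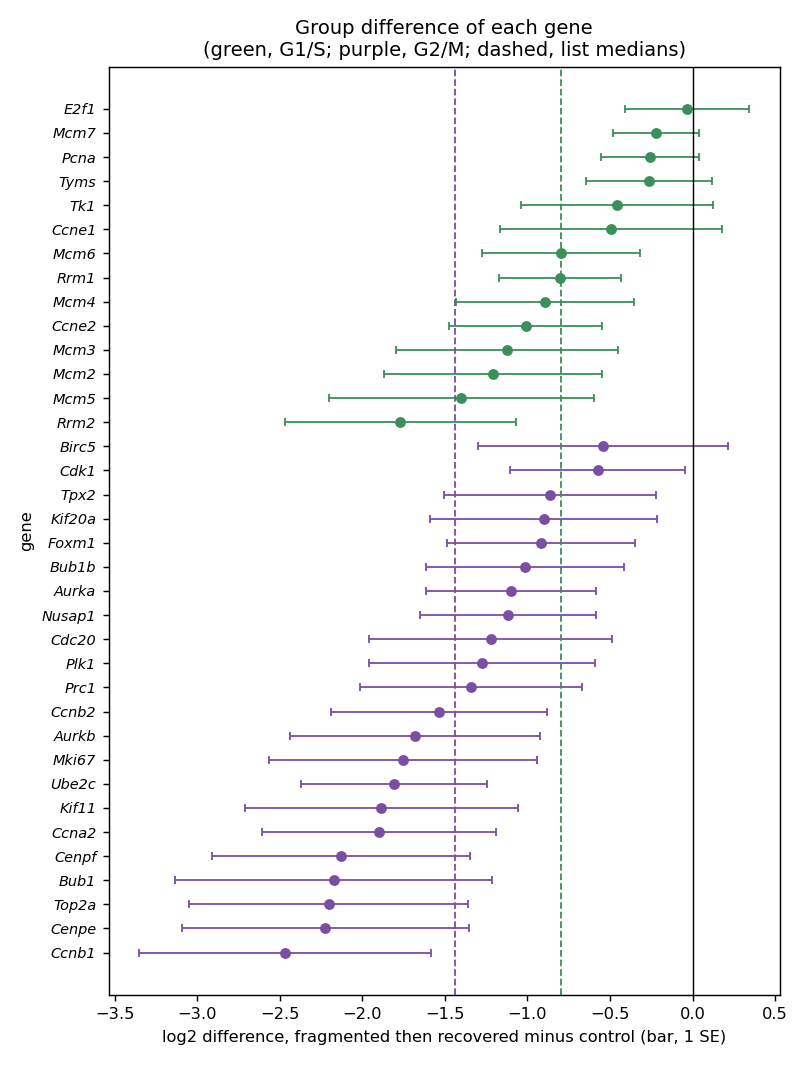
The log2 difference of each gene (FR minus control) is shown with 1 SE, G1/S genes in green and G2/M genes in purple, and dashed lines mark the list medians of -0.80 and -1.44. All 36 points lie below 0, with E2f1 nearest to it and Ccnb1 farthest.

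Libraries high in these genes were also high in markers of lymphoid cells. The summed value of 17 B and plasma cell markers was 3522, 39211 and 1890 in FR 1 to FR 3 and 2173, 98398 and 25947 in C 1 to C 3. Pax5, the transcription factor of B cell identity, had 1066 in FR 2 and was at 0 in FR 1 and C 1. Blk, Cr2, Fcer2a and Vpreb3 were also at 0 in some library. For all 17 markers FR 2, C 2 and C 3 lay above the other libraries. The 14 T and NK cell markers summed to 667 to 8341 in the FR mice and 988 to 7446 in the controls, and FR 2 exceeded every control. The 7 lymph node stroma genes summed to 224 to 6220 in the FR mice and 271 to 4638 in the controls. Most of the FR 2 sum was Glycam1, a product of lymph node venules. It was at 5484 in FR 2, 1968 in C 2, 402 in C 3 and 0 in the other libraries. Of the 7 stroma genes only 1, Glycam1, had FR 2, C 2 and C 3 above the other libraries, against 10.8% of all genes tested. Cxcl13 had 591 in FR 1 and 466.5 in FR 2.

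Of 8 genes of germinal centre B cells, 6 were higher in both C 2 and C 3 than in FR 2, against 32.0% of all genes tested. Gcsam, Rgs13 and Mybl1 had 111, 27.3 and 212 in FR 2 against 332, 185 and 1442 in C 2 and 370, 164 and 853 in C 3. Bcl6, at 722 in FR 2 against 800.3 and 714, and Basp1, at 784 against 541 and 421, were not among the 6. Fas was among them by a small margin, at 393.7 in FR 2 against 509.8 and 399.9. Its highest values were in FR 1 and FR 3, at 623 and 588. The 3 genes first named were chosen after their values were seen. The whole list summed to 1942, 2772.5 and 3044.5 in FR 1 to FR 3 and 2315, 5055 and 3998 in C 1 to C 3. The part of these cells in the values of the cell cycle genes was not tested. With the mean log2 level of the B and plasma cell markers as a covariate, the median difference was -0.38 for G1/S and -0.89 for G2/M. In that fit 34 of 36 genes were lower, and 0 passed. At an unadjusted p under 0.05 by limma, 11 were lower, 1 in G1/S and 10 in G2/M, against 1.56% of all genes.

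**Figure D4:**
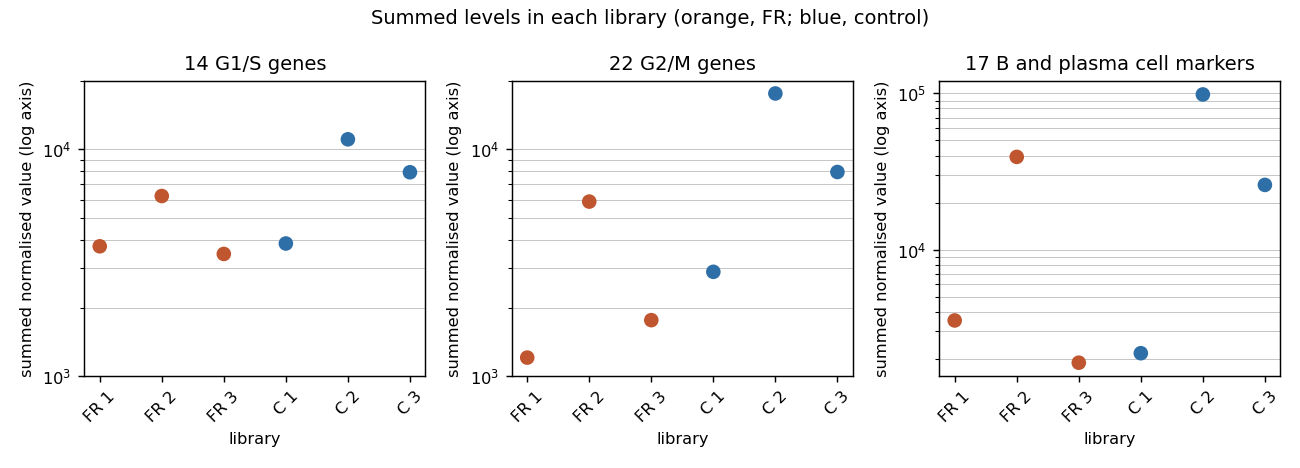
Summed normalised values are plotted for each library on log axes, FR mice in orange and controls in blue, for the 14 G1/S genes, the 22 G2/M genes and the 17 B and plasma cell markers. FR 2, C 2 and C 3 are the 3 highest points in each panel. Among the other libraries C 1 is above FR 1 and FR 3 for G2/M and narrowly for G1/S, and between them for the B cell markers.

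Among the libraries poor in B cell markers, FR 1 and FR 3 were set against the single control C 1. FR 1 and FR 3 were both below C 1 for 20 of the 22 G2/M genes and 8 of the 14 G1/S genes, against 27.4% of all genes tested. The exceptions in G2/M were Kif20a and Birc5. In these 3 libraries the B and plasma cell markers summed to 3522 in FR 1, 1890 in FR 3 and 2173 in C 1, and both FR mice were below C 1 for 2 of the 17. The T and NK cell markers summed to 667 and 700 in FR 1 and FR 3 against 988 in C 1, and both FR mice were below C 1 for 12 of the 14 (85.7%). Red cell markers summed to 9262 and 6726 in FR 1 and FR 3 against 16353 in C 1, and both FR mice were below C 1 for 6 of the 7. The mammary epithelium markers summed to 24187, 31771 and 33033 in FR 1 to FR 3 and 35503, 7952 and 9995 in C 1 to C 3, and all 10 had a higher mean log2 value in FR mice, with a median difference of 0.86. The neutrophil and bone marrow myeloid list summed to 820.1 to 3885 in FR mice and 2493 to 10484 in controls, and in FR 1, FR 3 and C 1 most of the sum was Ltf, which mammary epithelium also makes, at 609.6, 3561 and 4262. S100a8, a neutrophil gene, was at 37.3 in FR 1, 11.7 in FR 3 and 38.4 in C 1. In the other libraries it was at 172 in FR 2, 4865 in C 2 and 478 in C 3. C 2 was the highest library for 9 of the 10 genes of this list, against 23.4% of all genes tested. Summed markers of macrophages were 11393 to 30576 in all FR mice and 18187 to 27637 in controls, of progenitors 64808 to 89847 and 75106 to 87240, and of endothelium 18522 to 23316 and 17450 to 20402. Skeletal muscle markers were at 84117 in FR 1 and at 404 and 975 in FR 3 and C 1. Among the libraries rich in B cell markers, FR 2 was below both C 2 and C 3 for 14 of 22 G2/M and 9 of 14 G1/S genes, against 32.0% of all genes. FR 2 was also below both for 6 of the 17 B and plasma cell markers and 1 of the 14 T and NK cell markers. The same held for 4 of the 10 neutrophil and bone marrow myeloid genes. Both orders, in the poor and in the rich libraries, held for 18 of the 36 cell cycle genes, 13 of them in G2/M, against 7.16% of all genes. Each of these comparisons has a group of 1 mouse, so they carry no test, and the part of these other cells was not tested.

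Other genes of the same waves were mostly lower as well, and in 25 of the 36 of each list FR 2, C 2 and C 3 lay above the other libraries. Of 36 further G1/S genes 33 were lower in FR mice, with a median of -0.71, and of 36 further G2/M genes 34 were lower, with a median of -1.07, and 0 of either list passed. The genes with the highest mean values were Ubr7 (-0.42, SE 0.24) and Usp1, a deubiquitinase of the replication stress response (-0.65, SE 0.30), in G1/S, and Tmpo, a nuclear lamina protein (-0.76, SE 0.36), and Anp32e, a histone chaperone (-0.92, SE 0.42), in G2/M. At an unadjusted p under 0.05, 4 of the 36 G1/S and 8 of the 36 G2/M genes were lower and 0 higher, against 2.14% and 3.24% of all genes. In 3 of the 36 G2/M genes all FR mice lay below all controls, against 3.58% of all genes tested, and they are named because of their values. Nuf2, a kinetochore protein, had 18.7, 78.1 and 21.7 against 81.0, 235 and 146. Anln, which encodes anillin of the cleavage furrow, had 177, 196 and 250.1 against 292, 469 and 317.5. Ckap2, a spindle protein, had 24.9, 59.2 and 33.4 against 76.7, 191 and 78.0.

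Genes that start or restrain the cycle had that order over libraries in 1 of 10 and 4 of 16 cases, against 10.8% of all genes. Of 10 G1 cyclins, kinases and their partners 7 were lower, with a median of -0.33. Ccnd2, a D cyclin, had -0.62 (SE 0.39) and Ccnd3 0.05 (SE 0.25). Cdc25a, the phosphatase that activates Cdk2, was the one gene of this list with all FR mice below all controls, at 190, 283 and 205 against 309, 340 and 335, a gene picked for that order, which 3.58% of all genes had. Of 16 brakes of the cycle 7 were lower and 9 higher, with a median of 0.02, and 0 passed. Btg1, an antiproliferative gene, had 0.01 (SE 0.23). Rb1, the retinoblastoma gene, had 1761, 1373 and 1896 against 1921, 2841 and 3276, a difference of -0.65 (SE 0.27), with all FR mice below all controls, though FR 3 and C 1 were 1896 and 1921. E2f4, the E2F of the DREAM complex, was the one brake with all FR mice above all controls, at 596, 674 and 628 against 561, 583 and 574 (difference 0.14, SE 0.22), an order found in 5.02% of all genes and for which it was picked.

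Libraries also differed in how their values followed base composition and transcript length. Across genes, which are not replicates of one another, Spearman's rho between GC content and the log2 deviation from a gene's mean was -0.27 in both C 2 and C 3. It was 0.13 to 0.37 in FR 1 to FR 3 and C 1. For transcript length rho was 0.18 in C 2 and 0.29 in C 3, and -0.22, -0.19, 0.06 and -0.20 in FR 1, FR 2, FR 3 and C 1. The median GC content of the longest transcript was 49.5% for the G1/S genes and 47.6% for the G2/M genes, against 49.1% for all genes tested. Its median length was 3193.5 bases for the G1/S genes and 3585.5 for the G2/M genes, against 2697.5 for all genes tested. With the trends on GC content and length removed from each library, all 36 genes were lower, with medians of -0.68 for G1/S and -1.60 for G2/M, and 0 passed.

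**Figure D5:**
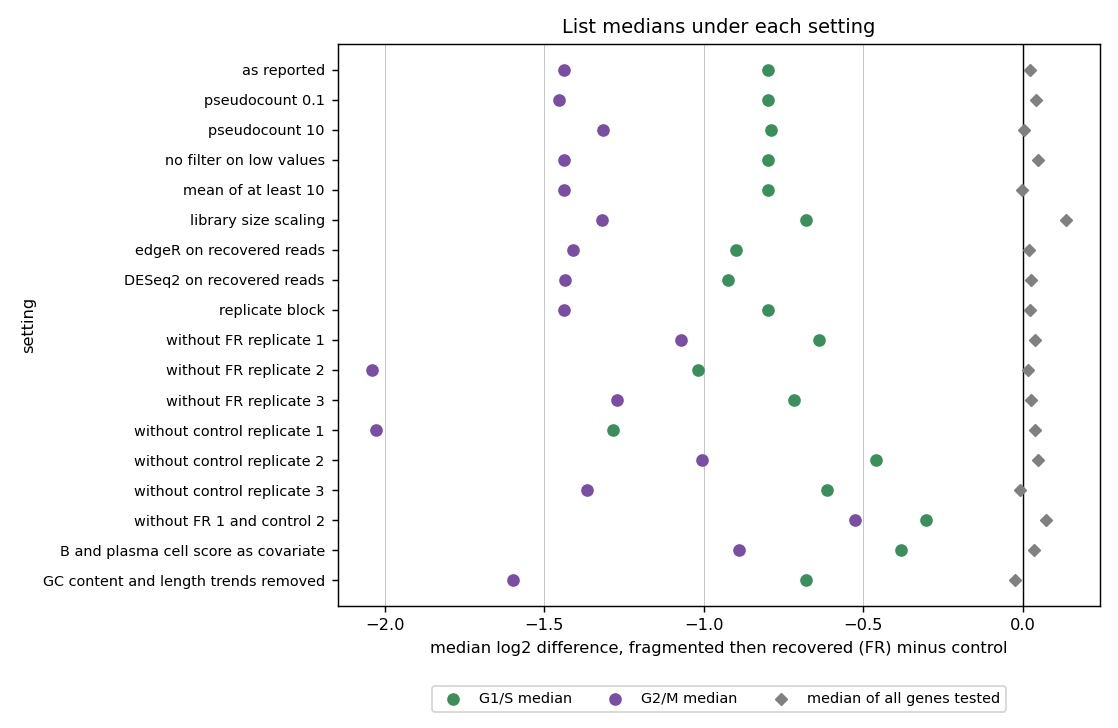
The median log2 difference (FR minus control) of the G1/S genes, the G2/M genes and all genes tested is plotted for each setting tried, 1 setting per line. The G2/M median lies below the G1/S median on every line, from -2.04 without FR 2 to -0.53 without FR 1 and C 2, while the median of all genes stays between -0.03 and 0.14.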

How the data were processed

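RNA sequencing of inguinal fat gave 6 libraries, 3 per group, each from 1 mouse. Per the submitters' processing notes, reads were handled with featureCounts 1.5.0-p3, HISAT2 2.0.5 and CASAVA, and mm8 is the build listed. The step that scaled the counts is not given in the sources used here. The table deposited by the authors holds a signal per gene and library that behaves as a read count divided by 1 size factor per library: each column over its smallest value above 0 gave whole numbers for 100% of values, within 0.02. These recovered reads totalled 15610201 to 19703569 per library.

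Symbols came from a table of gene identifiers, and 33 identifiers had none. The test was limma 3.58.1 (R 4.3.3) with an intensity trend on log2(value + 1), two-sided. It covered 22290 genes whose mean value was 1 or more, Benjamini-Hochberg adjusted over all of them at an FDR of 0.05. This scale understates changes of low genes. As alternatives, the recovered reads were tested with edgeR 4.0.16 (16141 genes after its expression filter) and with DESeq2 1.42.0, which gave 118 adjusted p-values as NA. Other alternatives changed scaling, pseudocount, filter, replicate block, covariate, GC and length trends (splines of 4 degrees of freedom, values known for 99.87% of genes) and left out libraries. Promoter windows came from RefSeq on GRCm38.p6, another build than the notes name, and no coordinate was joined to the table.

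The members and lists were chosen with earlier results of these data known. Values in every library are given for the member of each role with the highest mean value, members with an unadjusted p under 0.05, and Mki67, Top2a, Pcna and Cdk1, and for other genes where the text says they were picked for their values. Of the pathway lists the 2 genes with the highest mean values are named. Reads of near-identical genes and pseudogenes may have been split in counting.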

Additional observations from a re-analysis of the deposited data

How the results depend on the processing

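The list medians stayed below 0 under all 17 alternatives, from -1.29 to -0.30 for G1/S and from -2.04 to -0.53 for G2/M. They moved by less than the pooled within-group SD of a single library's median (0.67 and 1.12). That is a wide bar for a difference of group means. The G2/M median, -1.44 as reported, was -0.53 without FR 1 and C 2, and the G1/S median, -0.80 as reported, was then -0.30. With 1 mouse left out in turn, G1/S ranged from -1.29 (without C 1) to -0.46 (without C 2), G2/M from -2.04 to -1.005 and their difference from -1.02 to -0.43. Genes called ranged from 0 to 844 and cell cycle genes called from 0 to 2 in these fits. Only the fit without C 1 made calls, 563 higher and 281 lower, 1.26% of genes lower, with Ccnb1 and Mcm6 among them. Leaving out C 1 left the 2 controls rich in lymphoid markers. The members at an unadjusted p under 0.05, 10 as reported, ranged from 0 to 26 with 1 mouse left out. They were 6 with library-size scaling (0.906% of all genes lower), 4 with edgeR (2.98%), 17 with DESeq2 (2.91%) and 0 without FR 1 and C 2 together (0.592%). With the replicate block they were 26, against 5.90% of all genes lower, with 0 calls. The replicate numbers do not pair the mice by any label, and the correlations of same-numbered deviations were 0.18, 0.39 and 0.04, and FR 1 and FR 2 but not FR 3 correlated best with their own number. The cause of these changes was not tested.

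Single genes turned to higher in 15 cases. E2f1 was 0.086 with library-size scaling and 0.0083 with edgeR, and ranged from -0.21 to 0.23 with 1 mouse left out, above 0 without FR 3, C 1 or C 3. With 1 mouse left out, Pcna ranged from -0.49 to 0.0078, Ccne1 from -1.06 to 0.0597 and Birc5 up to 0.041, each highest without C 2, and Tk1 from -1.06 to 0.028, highest without FR 1. Without FR 1 and C 2, Tk1 was 0.31, Ccne1 0.40, Cdk1 0.26 and Birc5 0.23. With the B cell covariate, Ccne1 was 0.0014 and Birc5 0.12.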
